A study of Homo sapiens with 6 samples.

Results

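TIPARP and 4 genes of the aryl hydrocarbon receptor pathway, AHR, ARNT, CYP1A1 and CYP1B1, were followed in Hs578T cells at 0, 6 and 9 h of HOXA5 induction. The members were all probe sets that the platform's probe table gives to 1 of these 5 symbols, 10 of the 22283 on the array (5 of 11963 named genes). They were 1 probe set each for TIPARP, AHR and CYP1A1, 3 for ARNT and 4 for CYP1B1. Hs578T is an established human breast cancer line, here made to carry an inducible copy of HOXA5, a homeobox transcription factor whose target genes are the question in the title of the series. All groups carried that construct: uninduced cells at 0 h, induced cells at 6 h and induced cells at 9 h, with 1 array per time in each of 2 experiments, 6 arrays in all. The inducing agent and the number of clones behind the line are not given in the sources used here. Per the labels each experiment is its own batch of RNA, with 1 exception. The lot line of the 6 h array of experiment 2 reads experiment 1. Since no uninduced array of 6 h or 9 h was analysed, hours in culture and the agent cannot be told apart from HOXA5, whose own level was not analysed here. The genes were selected on results of these same arrays, the 6 h and 9 h differences from 0 h, so the members' levels are given as a description. Counts of members past a threshold stand beside those of the whole array, and nothing is read from them.

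The aryl hydrocarbon receptor, AHR, is a ligand-activated transcription factor that waits in the cytosol bound to chaperones. On binding a planar aromatic ligand or a product of tryptophan breakdown, it enters the nucleus, pairs with ARNT and switches on genes that carry a xenobiotic response element. CYP1A1 and CYP1B1, which oxidise aromatic compounds and oestrogens, are its classic targets. TIPARP, a mono-ADP-ribosyltransferase of the PARP family, is another target and in turn modifies the receptor and holds back its activity. TIPARP can also be induced by other routes.

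The core of the xenobiotic response element is GCGTG, and the promoters of the genes that answer the receptor and of the receptor itself are shown for that reason. The windows are those of RefSeq on GRCh38.p14, from 250 bases before an annotated start, and capitals mark GCGTG on either strand (CACGC as printed where it lies on the other strand). TIPARP has 3 annotated windows, of which the first is shown (chr3:156674340-156674639, plus strand), CYP1A1 has 1 (chr15:74725479-74725778, minus strand) and AHR has 1 (chr7:17298402-17298701, plus strand). CYP1B1 has 0 windows in the set used, so its promoter is not covered.
TIPARP: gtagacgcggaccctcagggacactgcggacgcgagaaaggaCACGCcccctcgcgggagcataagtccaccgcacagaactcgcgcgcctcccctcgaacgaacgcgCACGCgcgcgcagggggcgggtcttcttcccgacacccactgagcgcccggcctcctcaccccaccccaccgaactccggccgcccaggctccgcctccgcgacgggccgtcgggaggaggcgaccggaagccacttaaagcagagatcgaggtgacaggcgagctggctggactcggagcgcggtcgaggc
CYP1A1: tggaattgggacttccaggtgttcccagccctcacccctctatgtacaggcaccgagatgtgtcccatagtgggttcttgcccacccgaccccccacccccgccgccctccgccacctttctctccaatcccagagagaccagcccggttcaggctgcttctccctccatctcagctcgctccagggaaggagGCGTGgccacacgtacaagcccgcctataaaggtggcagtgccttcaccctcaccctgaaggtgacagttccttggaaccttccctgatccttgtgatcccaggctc
AHR: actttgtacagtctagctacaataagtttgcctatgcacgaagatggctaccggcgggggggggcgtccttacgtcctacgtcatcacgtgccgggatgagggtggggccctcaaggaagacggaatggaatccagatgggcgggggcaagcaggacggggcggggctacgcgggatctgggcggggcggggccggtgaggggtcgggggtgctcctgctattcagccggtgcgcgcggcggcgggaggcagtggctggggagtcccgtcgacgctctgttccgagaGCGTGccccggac
With the start base counted as 0, the core began at -208 and -142 in the TIPARP window, at -57 in that of CYP1A1 and at 37 in that of AHR. The other 2 TIPARP windows and the ARNT window held 0 copies. Of all 35116 windows of this length, 36.5% held the core on at least 1 strand, so its presence is common. TAAT, the core bound by homeobox factors, was in 50.2% of all windows; it was found 5 times in the third TIPARP window and 0 times in the others named here. These matches describe the letters of the windows and are no measure of binding.

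Each probe set has 1 linear intensity on each array, unscaled as deposited, and array medians ran from 18.7 (6 h, experiment 1) to 95.8 (0 h, experiment 1). They were quantile normalised, values under 12.7 intensity units (3.67 on the log2 scale) were set to that floor, and log2 was taken, so all differences below are relative to the whole array. Left unscaled, the median log2 difference over tested genes was -1.37 for 6 h and -0.57 for 9 h, both against 0 h. ACTB had a 3' to 5' signal ratio, a sign of RNA quality, of 1.82 in the 9 h array of experiment 1 and between 0.918 and 1.09 in the others; that of GAPDH was highest there too, at 1.31. Of 12 markers of mesenchymal breast lines, 10 lay above the floor on all 6 arrays, while TWIST1 and S100A4 reached it in experiment 2. The summed normalised intensity of the list ran from 19216 to 19891 at 0 h and from 18813 to 20403 at 6 h. At 9 h it ran from 18966 to 20252. The brightest genes carry that sum, VIM first, with log2 intensities of 12.22 and 12.90 at 0 h in experiments 1 and 2. It hides dimmer genes that differed between experiments, such as COL3A1, with 8.86 and 4.66 at 0 h. Of 10 luminal epithelial markers 7 were above the floor throughout, with EPCAM and KRT19 too dim to be tested. The sum of that list ran from 1214 to 3844 at 0 h, from 1208 to 2194 at 6 h and from 1329 to 2344 at 9 h. It is mostly KRT18, with log2 intensities of 11.78 and 9.73 at 0 h in experiments 1 and 2. GATA3, the next brightest, had 7.05 and 6.97. Of 7 leukocyte markers 2 were, with CD14 and LCP2 too dim, and the sum ran from 68.9 to 133 at 0 h, from 107 to 155 at 6 h and from 92.2 to 95.3 at 9 h. Of 7 hepatic markers 2 were, with FGB too dim; their sum was low, from 107 to 122 at 0 h, from 144 to 196 at 6 h and from 128 to 140 at 9 h, so that both induced groups lay above 0 h. The part of these markers in the results was not tested. Precision is limited by having 2 arrays per group.

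TIPARP was higher after induction at both times and in both experiments, relative to the whole array. Its probe set, 212665_at, had normalised log2 intensities of 8.85 and 8.79 at 0 h in experiments 1 and 2, of 10.02 and 10.17 at 6 h, and of 10.70 and 10.53 at 9 h. The 3 times did not overlap, and the order was 0 h, 6 h, 9 h in each experiment. The 2 arrays of a time lay 0.060, 0.15 and 0.18 apart at 0, 6 and 9 h, where the median gap over all tested probe sets was 0.35, 0.49 and 0.48. TIPARP was chosen on these same arrays, and that median also covers dim probe sets, so nothing is read from its small gaps.

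At 6 h TIPARP stood at 2.41 times its 0 h level, a log2 difference of 1.27 ± 0.22 (standard error of the limma fit, n = 2 arrays per group). The difference was 1.17 in experiment 1 and 1.37 in experiment 2. At 9 h it stood at 3.46 times the 0 h level, with a log2 difference of 1.79 ± 0.22, made of 1.85 and 1.73 in the experiments. Both comparisons rest on the same 0 h arrays. Between the induced times the difference was smaller, 0.52 ± 0.22 for 9 h against 6 h, with 0.68 and 0.36 in the experiments.

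In the deposited values, before scaling, TIPARP read 887 and 487 at 0 h, then 373 and 732 at 6 h, then 2080 and 1055 at 9 h. The 6 h array of experiment 1, the dimmest of the 6, was thus below its 0 h array, while the 9 h arrays were the highest of each experiment. Unscaled, the mean log2 difference was -0.33 at 6 h, where the median gene had -1.37, and 1.17 at 9 h, where the median gene had -0.57. The higher level at 6 h is therefore one relative to the other genes of the array, and it turns sign without scaling.

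**Figure D1:**
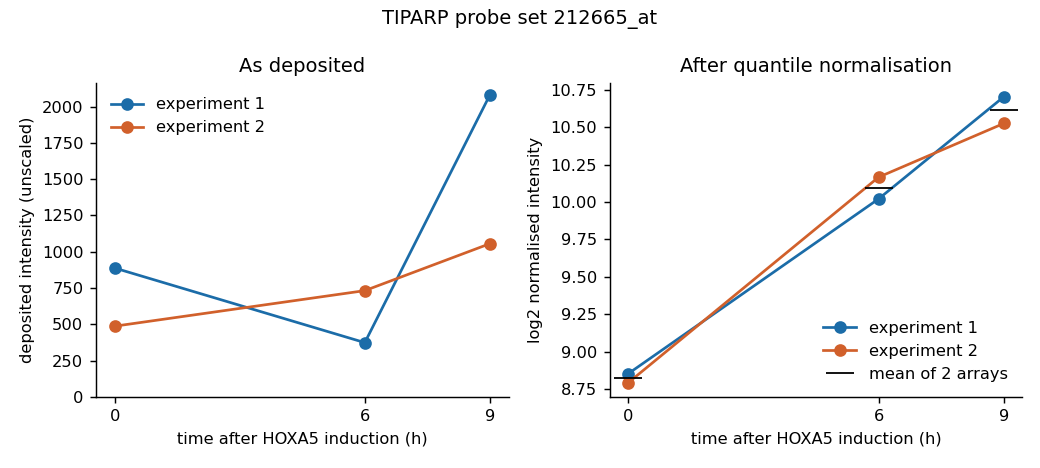
TIPARP at 0, 6 and 9 h of HOXA5 induction, with 1 point per array and 1 line per experiment: deposited intensity on the left, log2 normalised intensity on the right, where black bars mark the mean of 2 arrays. After normalisation both 6 h arrays (10.02 and 10.17) and both 9 h arrays (10.70 and 10.53) lie above the 0 h arrays (8.85 and 8.79), while the deposited 6 h value of experiment 1 is below its 0 h value.

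The size of the TIPARP difference placed it 293rd by increase among 18360 tested probe sets at 6 h and 110th at 9 h. These ranks are those after quantile normalisation. TIPARP was chosen on these same differences, so nothing is read from its ranks. At least 2-fold higher in both experiments were 1 of the 9 member probe sets that could be tested at 6 h, that of TIPARP, beside 1.24% of all tested probe sets. At 9 h it was again that 1, beside 2.14% of all. At least 2-fold lower in both experiments were 0 members in each comparison, beside 1.25% of all at 6 h, 1.23% at 9 h and 0.855% for 9 h against 6 h. The count of all probe sets moved with the scaling: of those 2-fold apart at 6 h, 49.7% were higher after quantile normalisation, 76.5% when arrays were scaled to the same trimmed mean and 0.187% unscaled. For 9 h against 0 h these shares were 63.5%, 65.4% and 7.29%.

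By limma with Benjamini-Hochberg adjustment over the whole array, 0 members passed the threshold of 0.05 in any comparison, beside 0% of all probe sets. When the fit also held the experiment, 1 member probe set passed at 9 h, that of TIPARP, beside 0.359% of all (66 probe sets, of which 60, or 0.327% of all tested, were higher), and 0 did at 6 h and for 9 h against 6 h, beside 0% each. For 6 h of experiment 2 the lot line in the labels reads experiment 1, and when lot lines replaced titles as the term 0 probe sets passed in any comparison, that of TIPARP included. Since TIPARP was chosen with these values known, nothing is read from that count.

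AHR, the receptor, followed no course shared by both experiments. Its probe set, 202820_at, had log2 intensities of 7.26 and 6.31 at 0 h, then 6.30 and 6.43 at 6 h, then 7.30 and 6.48 at 9 h in experiments 1 and 2. Experiment 1 was high at 0 and 9 h and low at 6 h, experiment 2 was nearly level, and both induced groups overlapped the 0 h group. The log2 difference was -0.42 ± 0.48 at 6 h and 0.10 ± 0.48 at 9 h against 0 h. The first was -0.96 in experiment 1 and 0.12 in experiment 2, and it was 0.059 without the 0 h array of experiment 1. For 9 h against 6 h the groups did not overlap, with 0.53 ± 0.48, 1.00 of it in experiment 1 and 0.053 in experiment 2. The standard error of 0.48 is that of the fit without the experiment, so it also holds the gap between experiments. Within experiments 1 and 2 the 9 h difference from 0 h was 0.034 and 0.17. With 2 arrays per group and that standard error, a moderate difference of AHR could not be told from none.

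ARNT, the nuclear partner of AHR and of the hypoxia factors, was dim, and its 3 probe sets did not follow one course. The brightest, 210828_s_at, had 4.56 and 4.98 at 0 h, then 3.67 and 5.01 at 6 h, then 4.67 and 3.67 at 9 h. It was thus at the floor in 1 array of each induced time, in different experiments. Probe set 218221_at had 4.41 and 4.58 at 0 h, then 4.38 and 3.67 at 6 h, then 5.26 and 3.73 at 9 h. Its 6 h arrays lay below its 0 h arrays, and its 9 h arrays on either side of them.

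The third, 218222_x_at, had 4.25 and 3.67 at 0 h, then 3.67 and 3.67 at 6 h, then 5.23 and 5.26 at 9 h. Both 6 h arrays were at the floor and both 9 h arrays above every other, so 9 h was at least 2.98-fold higher than 6 h. It was the 1 member probe set at least 2-fold higher at 9 h than at 6 h in both experiments, beside 1.02% of all tested. The suffix x marks a set with probes that can also match other transcripts. The log2 differences of the 3 sets for 9 h against 0 h were -0.59 ± 0.57, -0.00023 ± 0.56 and 1.29 ± 0.36. Having 3 arrays above the floor, 2 of them at 9 h, the third set passed the filter on low values mainly through the group where it was high.

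CYP1A1 was higher at both induced times in each experiment, but by very different amounts. Its probe set, 205749_at, had log2 intensities of 4.61 and 6.10 at 0 h, then 6.82 and 6.38 at 6 h, then 6.47 and 6.59 at 9 h. Its 4 induced arrays lay close together, and the 0 h array of experiment 1 stood apart below them. The log2 difference was 1.25 ± 0.56 at 6 h, made of 2.21 in experiment 1 and 0.28 in experiment 2. At 9 h it was 1.17 ± 0.56, made of 1.86 and 0.49. Leaving out 0 h of experiment 1 gave 0.51 and 0.43, and leaving out 0 h of experiment 2 gave 1.96 and 1.89, so that 1 array decides the size. In deposited values CYP1A1 read 48.5 and 69.9 at 0 h, then 39.2 and 64.6 at 6 h, then 94.9 and 82.4 at 9 h. Its unscaled difference was -0.21 for 6 h, which turns the sign, and 0.60 for 9 h. Between 9 h and 6 h the 2 groups overlapped (-0.077 ± 0.56).

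CYP1B1 was dim on all 4 of its probe sets. Set 202434_s_at was at the floor on all 6 arrays and could not be tested, with deposited values from 0.9 to 6.1. Set 202436_s_at, the brightest, had 5.26 and 5.45 at 0 h, then 5.74 and 4.75 at 6 h, then 6.55 and 5.74 at 9 h. Its 9 h arrays lay above both 0 h arrays and its 6 h arrays on either side of them. The log2 difference was -0.11 ± 0.53 at 6 h and 0.79 ± 0.53 at 9 h. The 9 h difference was 1.29 in experiment 1 and 0.29 in experiment 2.

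Set 202437_s_at of CYP1B1 lay at the floor on each 0 h array, had 4.11 and 3.67 at 6 h, and 6.03 and 3.94 at 9 h, at least 2.49-fold higher at 9 h than at 0 h. That value rests on the 9 h array of experiment 1 (0.27 on the log2 scale without it), and the set passed the filter only through induced arrays. Set 202435_s_at had 4.46 and 4.56 at 0 h, then 3.67 and 5.05 at 6 h, then 5.55 and 4.07 at 9 h, moving in opposite directions in the experiments at both times. The 9 h array of experiment 1 was the highest on all 3 tested sets, and it also had the highest 3' to 5' ratio of ACTB, whose part in the result was not tested.

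**Figure D2:**
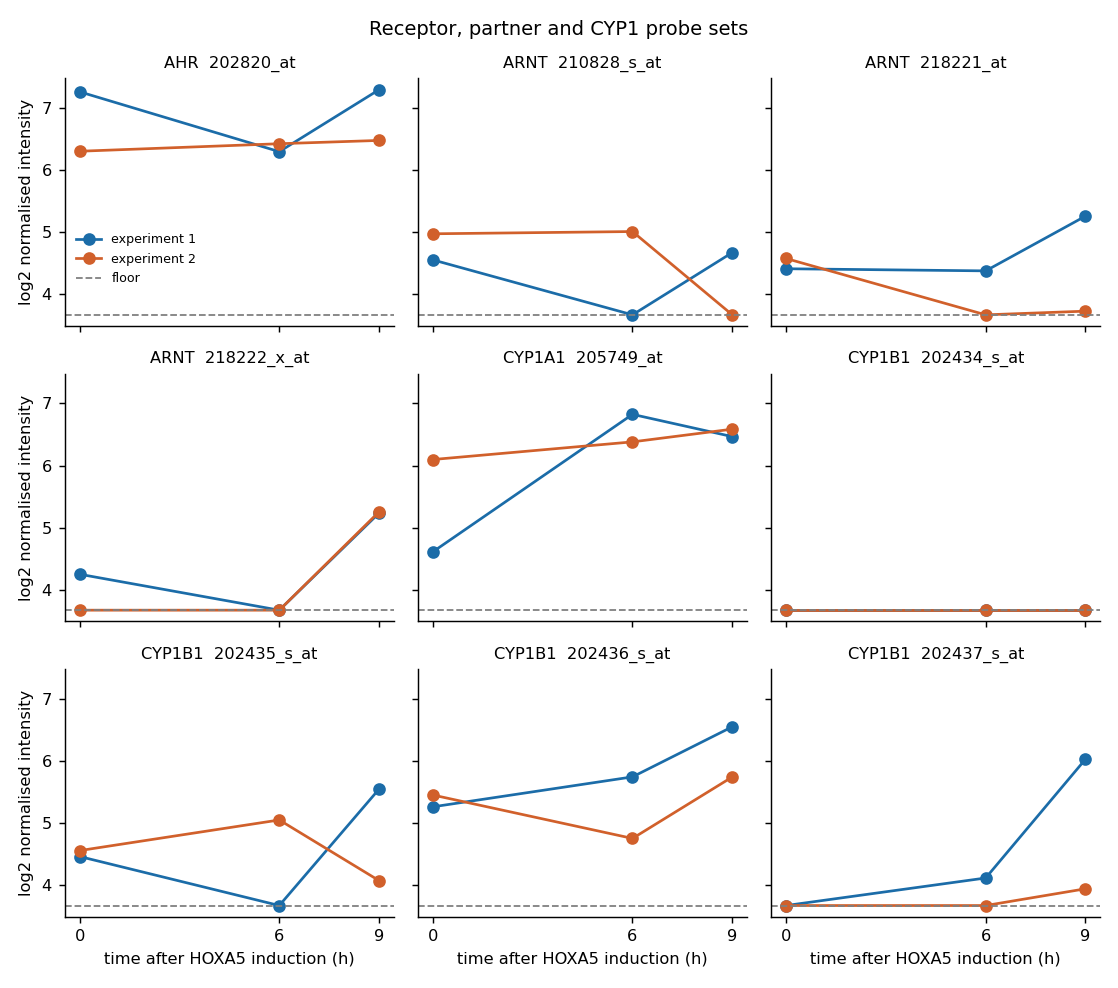
Log2 normalised intensity of the 9 AHR, ARNT, CYP1A1 and CYP1B1 probe sets at 0, 6 and 9 h of induction, with 1 point per array, 1 line per experiment and the floor of 3.67 as a dashed line. The sets of AHR and CYP1A1 and CYP1B1 set 202436_s_at stay above the floor on all arrays. All ARNT sets and the other CYP1B1 sets reach it, and 1 CYP1B1 set lies on it throughout.

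Of the 9 tested member probe sets, 2 lay wholly above 0 h at 6 h (TIPARP and CYP1A1), beside 16.1% of all tested probe sets, and 1 wholly below (ARNT 218221_at), beside 16.2%. At 9 h 5 lay wholly above 0 h, beside 18.3% of all: TIPARP, CYP1A1, 2 CYP1B1 sets and ARNT 218222_x_at. At 9 h 0 lay wholly below, beside 19.1%. For 9 h against 6 h 3 lay wholly above, TIPARP, AHR and ARNT 218222_x_at, beside 14.9%, and 0 below, beside 15.1%. These counts hold several sets of 1 gene and sets that passed the filter through their high group, and nothing is read from them.

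Over the 6 arrays, the profile of CYP1A1 had a Pearson r of 0.71 with that of TIPARP, that of CYP1B1 202436_s_at 0.47, that of AHR 0.031 and that of ARNT 210828_s_at -0.38. These are descriptions over arrays that share their times and batches. Among 2481 other genes above the floor on all arrays and with an SD of at least 0.5, 71 had an r of at least 0.9 with TIPARP, so a close match is not rare with 6 arrays. The 8 closest were SAT1 (0.990), ZC3H7A (0.981), CHAC1 (0.980), SNAI2 (0.979), RAPGEF6 (0.969), GLUL (0.968), JUNB (0.965) and CCNT2 (0.964).

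SAT1, which acetylates spermidine and spermine for export, had the closest profile. Its log2 intensities were 8.36 and 8.02 at 0 h, then 9.57 and 9.58 at 6 h, then 10.23 and 10.29 at 9 h, with all 3 of its probe sets higher at 9 h than at 0 h. CHAC1, a glutathione-degrading enzyme, had 6.61 and 6.17 at 0 h, then 7.81 and 8.06 at 6 h, then 8.58 and 8.04 at 9 h. SNAI2, a zinc finger repressor of epithelial genes, had 7.17 and 7.16, 8.14 and 8.46, and 8.46 and 8.56 at these times. JUNB is a subunit of AP-1, GLUL is glutamine synthetase (1 of its 3 probe sets had this sign at 9 h) and CCNT2 is a cyclin of the elongation kinase P-TEFb. All 8 were higher at 6 h than at 0 h by 0.66 to 1.54 on the log2 scale, and at 9 h by 1.09 to 2.08. They were picked by that likeness, so this direction is no finding.

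**Figure D3:**
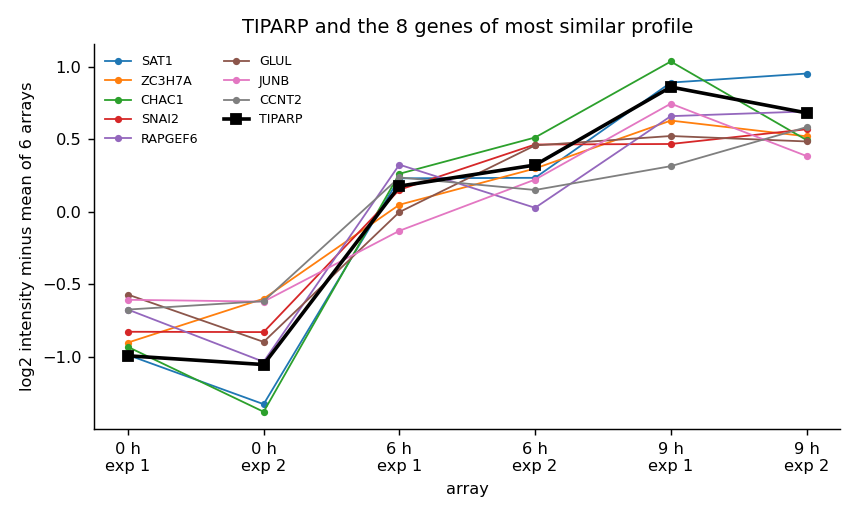
Log2 normalised intensity of TIPARP (black squares) and the 8 genes of highest Pearson r with it, each minus its own mean over the 6 arrays, by time and experiment (exp). All 9 profiles are lowest on the 0 h arrays; r runs from 0.964 for CCNT2 to 0.990 for SAT1.

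No gene of the pathway lists passed the test. Over 6 lists, 57 genes that are no members were tested, out of 84 listed. By limma, adjusted over the whole array, 0 of them passed in any comparison, beside 0% of all genes, and 0 passed when the fit held the experiment, beside 0%, 0.450% and 0% of all genes for 6 h against 0 h, 9 h against 0 h and 9 h against 6 h. In the limma fit with the experiment, the lowest adjusted p of a list gene was 0.303, 0.0776 and 0.473 in these comparisons. At an unadjusted p under 0.05, 3 were higher at 6 h than at 0 h, beside 2.38% of all genes, and 1 lower, beside 1.84%. At 9 h 6 were higher than at 0 h, beside 4.70%, and 1 lower, beside 3.21%. For 9 h against 6 h these were 3 and 1, beside 2.52% each. In the fit that held the experiment, the unadjusted counts were 4 and 3 at 6 h (5.21% and 4.53% of all), 12 and 4 at 9 h (8.28% and 6.80%) and 7 and 1 for 9 h against 6 h (4.79% and 4.60%). Left unscaled, the 6 h differences of all list genes named below were under 0 apart from those of PTGS2 and RELB.

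Of the receptor complex, 6 of 8 further genes were tested, with a median log2 difference of -0.12 at 6 h, where all genes had 0.012, and -0.39 at 9 h, where all genes had -0.020. The chaperones HSP90AA1 and HSP90AB1, which keep the receptor ready for its ligand, had differences of 0.018 and 0.13 at 6 h and 0.25 and -0.48 at 9 h. PTGES3, their co-chaperone p23, had -0.19 and -0.29. ARNT2, a relative of ARNT, had -0.055 and -0.078. STUB1, a ubiquitin ligase that works on chaperone clients, had log2 intensities of 9.17 and 8.91 at 0 h, then 8.80 and 8.64 at 6 h, then 8.30 and 8.24 at 9 h. Its groups did not overlap, and the difference was -0.78 at 9 h (limma adjusted p = 0.603, and 0.163 in the fit with experiment). CUL4B, the scaffold of a ubiquitin ligase in which the receptor itself can serve, had -0.96 at 6 h and -0.81 at 9 h. Its values ran from 5.90 to 7.27 in experiment 2 and from 7.92 to 8.46 in experiment 1. Its limma adjusted p was 0.969 and 0.882, and 0.411 and 0.300 in the fit with experiment.

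Of the receptor targets, 9 of 18 further genes were tested, with medians of -0.011 at 6 h and 0.090 at 9 h. CYP1A2, the hepatic relative of CYP1A1, had 0.29 and 0.090. NQO1, a quinone reductase and classic battery gene, had 10.01 and 9.56 at 0 h. It had 9.95 and 9.21 at 6 h and 9.76 and 9.05 at 9 h, below 0 h in both experiments. The mean differences were -0.20 and -0.38. The limma adjusted p was 0.976 and 0.869, and 0.781 and 0.435 in the fit with experiment. GSTA1, a glutathione transferase, had -0.011 and -0.32, and ABCG2, an efflux pump, -0.044 and 0.15. IDO1, which opens the kynurenine route, had -0.59 and -0.15, with 1 array at the floor at 6 h. ALDH3A1 and EREG were too dim to be tested.

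PTGS2, the inducible prostaglandin synthase, had log2 intensities of 3.67 and 4.90 at 0 h, then 5.26 and 6.13 at 6 h, then 6.42 and 6.82 at 9 h. Its groups did not overlap, with differences of 1.41 ± 0.58 at 6 h and 2.33 at 9 h (limma adjusted p = 0.969 and 0.555, and 0.404 and 0.0776 in the fit with experiment). The array at the floor, 0 h of experiment 1, makes its own size depend on the floor. NFE2L2, the master factor of the antioxidant response, had 9.34 and 9.33, 9.64 and 9.77, and 9.98 and 10.36, differences of 0.37 and 0.83 (adjusted p = 0.969 and 0.577, and 0.586 and 0.112 in the fit with experiment). Unscaled, NFE2L2 had -1.27 and 0.19, so its sign at 6 h turns, and PTGS2 had 0.25 and 1.96. SLC7A5, which carries tryptophan and kynurenine into cells, had 0.80 and 0.50, or -0.83 and -0.15 unscaled. Its limma adjusted p was 0.969 and 0.793, and 0.389 and 0.414 in the fit with experiment. Its 9 h difference was 0.0082 in experiment 1 and 0.99 in experiment 2. BAX, a pro-apoptotic gene that the receptor drives in mouse oocytes, lay at the floor on each 6 h array. It was at least 3.29-fold lower there than at 0 h (limma adjusted p = 0.969, and 0.365 in the fit with experiment). At 9 h it had -0.27.

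**Figure D4:**
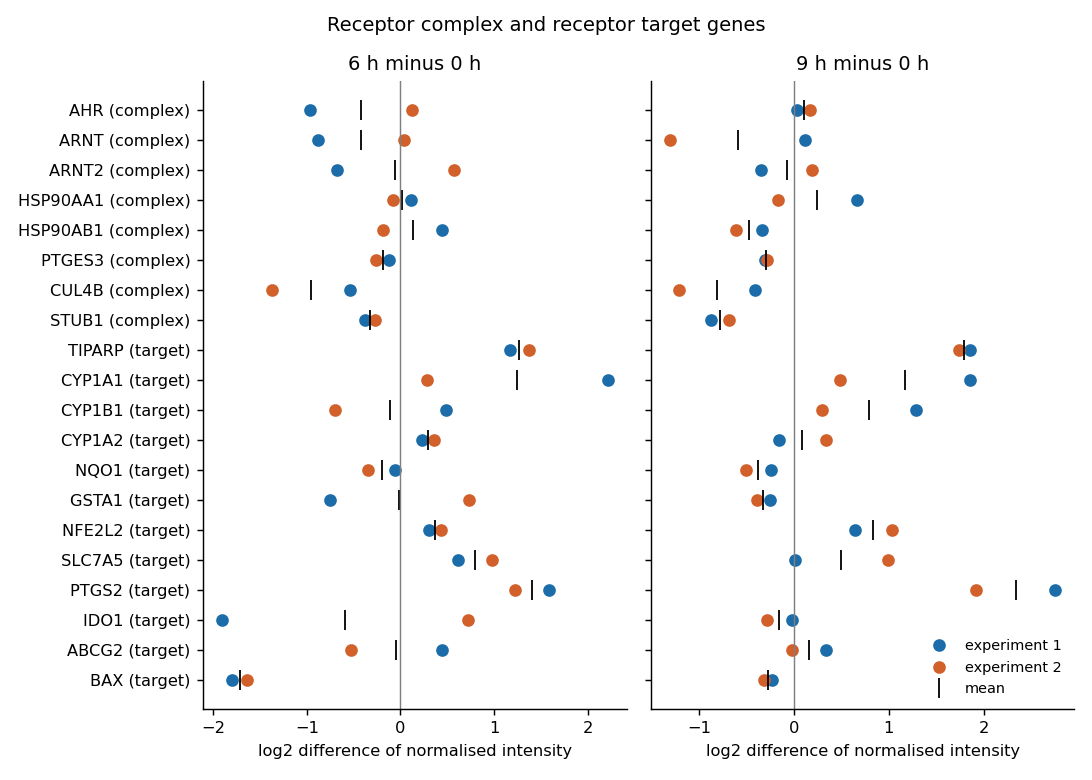
Log2 difference of normalised intensity for receptor complex and receptor target genes, 6 h minus 0 h on the left and 9 h minus 0 h on the right, with 1 point per experiment and a black bar for their mean. TIPARP lies at 1.27 and 1.79 with its experiments close together, CYP1A1 at 1.25 and 1.17 with its experiments far apart, and NQO1 at -0.20 and -0.38.

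Among other bHLH-PAS factors, coactivators and factors that bind the receptor, 19 of 23 were tested, with medians of 0.15 at 6 h and 0.32 at 9 h. RELB, an NF-kB subunit that can pair with the receptor, had 5.47 and 7.18 at 0 h, then 7.63 and 8.33 at 6 h, then 7.58 and 8.10 at 9 h. Its induced arrays lay above both 0 h arrays, by 1.65 at 6 h and 1.52 at 9 h, and by 0.075 and 0.93 unscaled. The limma adjusted p was 0.969 and 0.650, and 0.303 and 0.103 in the fit with experiment. The clock factors BMAL1 and PER2 had 1.32 and 0.97 at 9 h (limma adjusted p = 0.709 and 0.787, and 0.192 and 0.288 in the fit with experiment). NRIP1, a nuclear receptor corepressor, had 0.92 at 9 h (limma adjusted p = 0.619, and 0.193 in the fit with experiment). HIF1A, which competes for ARNT, had 0.18 at 6 h and 0.41 at 9 h (-1.38 and -0.22 unscaled).

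Of the PARP family and the enzymes that remove ADP-ribose, 15 of 22 genes besides TIPARP were tested, with medians of 0.011 at 6 h and 0.086 at 9 h. PARP8 had 6.28 and 5.87 at 0 h, then 6.51 and 6.27 at 6 h, then 7.26 and 6.70 at 9 h. Its difference at 9 h was 0.91 (limma adjusted p = 0.684, and 0.300 in the fit with experiment). PARP11 was at the floor in all 4 arrays of 0 and 6 h and above it in both of 9 h. At 9 h it was at least 1.80-fold higher than at 0 h, and it was tested through that group alone. Its limma adjusted p was 0.621, and 0.339 in the fit with experiment. MACROD1, a hydrolase that takes mono-ADP-ribose off proteins, had 5.89 and 6.71 at 0 h. It had 4.59 and 5.70 at 6 h and 5.71 and 6.04 at 9 h, differences of -1.15 and -0.42. Its limma adjusted p was 0.969 and 0.914, and 0.459 and 0.756 in the fit with experiment. OARD1, another such hydrolase, had -0.77 and -0.97 (limma adjusted p = 0.969 and 0.709, and 0.606 and 0.358 in the fit with experiment).

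Of the kynurenine route, which makes ligands of the receptor from tryptophan, 8 of 12 genes were tested, with medians of 0.22 at 6 h and 0.39 at 9 h. KYNU, kynureninase, had 6.06 and 7.79 at 0 h, then 7.06 and 7.21 at 6 h, then 8.50 and 8.18 at 9 h, with all 4 probe sets higher at 9 h. Its difference at 9 h was 1.42, 2.44 in experiment 1 and 0.39 in experiment 2 (limma adjusted p = 0.650, and 0.203 in the fit with experiment). The aminotransferases KYAT1 and KYAT3 had -0.66 and 0.81 at 9 h. Their limma adjusted p was 0.817 and 0.674, and 0.510 and 0.277 in the fit with experiment. Of proteins known as substrates of TIPARP, 3 besides AHR were tested, with medians of 0.18 at 6 h and 0.41 at 9 h, HIF1A among them.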

How the data were processed

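The authors deposited an intensity for every probe set on each Affymetrix array (platform per the labels). It is linear, above 0 and not scaled between arrays; its software is not given in the sources used. Of 22283 probe sets, 19071 carry 1 symbol in the probe table used here, 1043 several and 2169 none. For 19059 the symbol was read from RefSeq by Entrez number, whether or not it differed. After quantile normalisation, a floor at the 25th percentile (12.7) and log2 followed. After 68 controls were left out, 18360 probe sets with at least 2 of 6 arrays above the floor were tested, for 10444 genes, each read from its brightest probe set.

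The 3 groups of 2 arrays were fitted in limma 3.58.1 (R 4.3.3; moderated test with trended prior, 3 residual degrees of freedom), two-sided, with Benjamini-Hochberg adjustment. The labels give the experiments as batches of RNA, apart from the lot line given below. Arrays sharing an experiment had correlated deviations from their group means (0.247, 0.336 and 0.391), so the experiment pairs the arrays. The fit without it was the main one, and the fit with it as a term is the alternative. All standard errors, and each adjusted p not said to be of the fit with experiment, ignore that pairing. The 6 h array of experiment 2 has a lot line of experiment 1; its title was followed, and with the lot line as the term 0 probe sets passed at 9 h, against 66 with the experiment. Replicates correlated at 0.901 to 0.944 and were not duplicates. P-values set a difference against the spread between these arrays, which may be technical. The moderated test draws the spread of each probe set towards that of others of like intensity. TIPARP thus had a standard error of 0.22 with a pooled replicate SD of 0.097.

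Members and lists were chosen with earlier results of these data known. All genes of the receptor complex and target lists could be named, up to 4 of each other list with the largest difference shared by both experiments, and the 8 genes closest to TIPARP. The fit without the experiment was tested on simulated data for 9 h against 0 h. Noise there was independent between arrays, and the planted difference was 4 on the log2 scale. The fit with the experiment was not simulated.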

Additional observations from a re-analysis of the deposited data

Results flagged for a closer look

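Among the tested member probe sets and list genes, 2 list genes moved one way in both experiments at 6 h and the other way in both at 9 h. The difference between the times is the comparison of 9 h with 6 h, which neither gene passed. NPAS2, a clock relative of CLOCK, had -0.17 at 9 h and 0.15 at 6 h, each against 0 h, so that the 9 h difference minus the 6 h one was -0.32 on the log2 scale (limma adjusted p = 0.941). NCOA2, a coactivator, had 0.037 at 9 h and -0.26 at 6 h, apart by 0.30 (limma adjusted p = 0.934). Its 9 h difference was 0.070 in experiment 1 and 0.0051 in experiment 2. In the limma fit with experiment the adjusted p was 0.795 for NPAS2 and 0.761 for NCOA2. Each gene was read from 1 of its 4 tested probe sets. For NPAS2, 3 of the 4 had the given sign at 6 h and 2 at 9 h. For NCOA2, 3 had it at 6 h and 1 at 9 h, so the other sets do not share the reversal. These sizes are below the median gap of 0.48 and 0.49 between the 2 arrays of a time at 9 h and 6 h.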

How the results depend on the processing

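Without scaling between arrays, the TIPARP log2 difference was -0.33 at 6 h and 1.17 at 9 h against 0 h, and 1.50 for 9 h against 6 h. Under trimmed-mean scaling, the lower floor, an offset of 16, no filter and the replicate block it stayed within 1 SD of its replicates. With 1 array left out it ran from 1.21 to 1.34, from 1.69 to 1.90 and from 0.43 to 0.61 in these comparisons. The replicate block moved the probe sets past the threshold at 9 h against 0 h to 66 from 0 and changed no call of a list gene. With the lot line as the block, which differs from the title for the 6 h array of experiment 2, that count was 0, so the 66 calls rest on the title's experiment. Without the filter 24, 12 and 18 probe sets passed in the 3 comparisons, and 1 list gene for 9 h against 6 h, PARP11, whose 0 h and 6 h arrays are all at the floor. With 1 array left out, the counts past the threshold stayed at 0, from 0 to 0, of probe sets and of list genes in each comparison. Probe sets 2-fold apart in both experiments numbered 457, 619 and 344; they were 3205, 1645 and 766 unscaled, 998, 1084 and 864 with the floor at the 10th percentile, and 176, 316 and 110 with an offset. Of the 36 alternative values of AHR 2 moved by more than 1 replicate SD, of 108 of ARNT 17, of 36 of CYP1A1 6 and of 144 of CYP1B1 12; 4, 9, 3 and 11 changed sign.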

Other observations

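EPAS1, the hypoxia factor HIF-2 alpha and a partner of ARNT, was chosen after its values were seen because its 2 experiments lay farther apart than its times. It had log2 intensities of 9.39, 9.53 and 9.47 at 0, 6 and 9 h in experiment 1 and of 6.91, 6.74 and 7.52 in experiment 2, while its log2 difference was -0.021 at 6 h and 0.34 at 9 h. CUL4B, chosen in the same way, had 8.46, 7.92 and 8.05 in experiment 1 and 7.27, 5.90 and 6.06 in experiment 2.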
